A study of Mus musculus with 12 samples.

Results

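Immune checkpoints are pairs of cell surface receptors and ligands that restrain the activity of immune cells. The 10 genes described here are the receptors Pdcd1 (encoding PD-1), Ctla4, Havcr2 (TIM-3), Lag3 and Tigit, and the ligands Cd274 (PD-L1), Pdcd1lg2 (PD-L2), Lgals9 (galectin-9), Cd80 and Cd86. They were taken by symbol from a table of raw counts for 45906 genes, and all 10 had a row. Of these, 8 passed the filter on low counts that kept 20155 genes for testing, and Ctla4 and Tigit did not.

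PolyA-selected RNA of whole spinal cord was sequenced from 12 mice aged 7 months, with 3 mice in each of 4 genotypes. The Plekhg5+/+ group was wild-type, and the Plekhg5-/- group was Plekhg5-deficient, with part of the Plekhg5 transcript still counted (levels below). The Plekhg5+/+ SOD1-G93A and Plekhg5-/- SOD1-G93A groups also carried the low copy human SOD1-G93A transgene, a slowly progressing model of amyotrophic lateral sclerosis (ALS). All mice had a C57BL/6 background, and their sex was not a criterion of selection. The study crossed the strains to examine the effect of Plekhg5 loss on the disease of SOD1-G93A mice.

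In T cells, PD-1, CTLA-4, TIM-3, LAG-3 and TIGIT are known as receptors that damp activation, and several of them mark cells exposed to antigen for a long time. PD-L1 and PD-L2 bind PD-1, CD80 and CD86 bind both the activating receptor CD28 and CTLA-4, and galectin-9 is a ligand of TIM-3. In the central nervous system several of these genes are also expressed by microglia, the resident macrophages, whose activation is a hallmark of the spinal cord in ALS models.

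The libraries held 30415643 to 38743628 counts, so that 1 CPM (1 count per 1000000 counts, after normalization) stood for 30.3 to 38.6 counts. Plekhg5 had a mean of 22.9 CPM in Plekhg5+/+ and 22.4 CPM in Plekhg5+/+ SOD1-G93A mice, against 3.98 CPM in Plekhg5-/- and 4.26 CPM in Plekhg5-/- SOD1-G93A mice. Human SOD1 was at 4421 to 5638 CPM in the 6 libraries labelled SOD1-G93A and at 0.153 to 5.47 CPM in the other 6. Y-linked transcripts were present in 3 Plekhg5+/+, 2 Plekhg5-/-, 2 Plekhg5+/+ SOD1-G93A and 1 Plekhg5-/- SOD1-G93A libraries. All 8 markers of neurons, astrocytes, oligodendrocytes and endothelium were detected above the filter, as were all 10 pan-microglial markers. Replicate 1 of the Plekhg5+/+ SOD1-G93A mice stood apart from the others of its group in the members and microglial markers. It had the highest level of 7 members. Its pan-microglial markers lay 2.07 above the Plekhg5+/+ mean on the log2 scale, against 1.02 and 1.11 in the others. Over all genes, pairs of replicates were compared with counting noise by the chi-square per degree of freedom. In Plekhg5+/+ mice it was 21.4 and 22.0 for the pairs with replicate 1 and 6.97 for the remaining pair. In Plekhg5-/- mice these values were 21.2, 25.9 and 7.11, and in Plekhg5+/+ SOD1-G93A mice 15.5, 19.6 and 15.3.

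The members lie on 5 chromosomes of GRCm38.p6. Pdcd1 is at chr1:94038305-94052553 on the minus strand and Ctla4 at chr1:60909025-60915832 on the plus strand. Lag3 lies at chr6:124904359-124912434 (minus), Havcr2 at chr11:46454931-46481255 (plus) and Lgals9 at chr11:78962979-78984924 (minus). Cd86 is at chr16:36568956-36666158 (minus), Cd80 at chr16:38457430-38495958 (plus) and Tigit at chr16:43626137-43665125 (minus). The ligand genes Cd274, at chr19:29362107-29388095, and Pdcd1lg2, at chr19:29410919-29472927, are neighbours on the plus strand, 22823 bases apart.

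Some loci share sequence with other annotated genes, and reads on several genes or places were counted as fractions. Cd80 overlaps Gm8590 and Ck-ps3 on its own strand and Gm41453 on the other, Cd274 overlaps Plgrkt and Gm36043 on the other strand, and Tigit overlaps Zbtb20 and Mir568 on the other strand. The counting used the strand. Lag3 had a count that was not whole in 9 of 12 libraries, so part of its reads also matched elsewhere and its level is uncertain to that extent.

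The 250 bases before the annotated start site are shown for the called members with an entry among the RefSeq promoters of GRCm38.p6 and for Cd274, the ligand of PD-1, since these are the members whose levels differed or are compared most closely below. RefSeq entries were found for 8 of the 10 members, and Lag3 and Cd86 had none. Capitals mark matches, on either strand, to the core letters GAGGAA bound by the myeloid factor PU.1, to GAAANNGAA of the interferon response element, or to TGANTCA, the AP-1 site. The Pdcd1 window is chr1:94052554-94052803 (minus strand), that of Havcr2 chr11:46454681-46454930 (plus), that of Lgals9 chr11:78984925-78985174 (minus) and that of Cd274 chr19:29367188-29367437 (plus), whose start site lies inside the gene interval given above.
Pdcd1: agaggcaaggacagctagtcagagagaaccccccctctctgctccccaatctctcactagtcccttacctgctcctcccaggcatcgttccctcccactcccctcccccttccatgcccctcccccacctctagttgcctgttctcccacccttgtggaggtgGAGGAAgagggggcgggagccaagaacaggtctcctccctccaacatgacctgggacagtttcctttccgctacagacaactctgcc
Havcr2: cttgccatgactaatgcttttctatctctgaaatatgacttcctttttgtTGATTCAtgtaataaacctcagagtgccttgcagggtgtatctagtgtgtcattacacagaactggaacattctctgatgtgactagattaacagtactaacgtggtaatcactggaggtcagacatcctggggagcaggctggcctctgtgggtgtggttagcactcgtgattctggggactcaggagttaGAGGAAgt
Lgals9: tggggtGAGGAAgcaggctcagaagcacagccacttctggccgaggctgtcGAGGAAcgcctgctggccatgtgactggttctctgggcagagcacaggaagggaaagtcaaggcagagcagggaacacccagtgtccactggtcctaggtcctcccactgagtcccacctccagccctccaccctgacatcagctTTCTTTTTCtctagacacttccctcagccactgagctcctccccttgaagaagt
Cd274: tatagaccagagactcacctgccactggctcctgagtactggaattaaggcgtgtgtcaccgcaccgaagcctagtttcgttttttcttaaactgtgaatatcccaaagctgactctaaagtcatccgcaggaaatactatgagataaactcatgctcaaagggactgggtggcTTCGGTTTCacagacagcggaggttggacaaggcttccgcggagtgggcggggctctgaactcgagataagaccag

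The letters GAGGAA occurred in 4 of the 8 member windows (Pdcd1, Havcr2, Lgals9 and Pdcd1lg2) and in 23.3% of 32851 RefSeq windows of the same length. In Pdcd1 the match began 87 bases before the start site, and in Havcr2 it began 8 bases before it. The longer form GAGGAAGT, which contains the core, occurred in Havcr2 only and in 2.44% of all windows. GAAANNGAA occurred in Lgals9, Cd274 and Ctla4 and in 7.13% of all windows, and TGANTCA in Havcr2 and Cd80 and in 6.75%. The STAT letters TTCNNNGAA were in 0 of the 8 windows and in 7.02% of all, and TATAAA was in 0 of the 8 and in 12.4% of all. These matches are descriptions of the sequence only.

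In wild-type mice the members spanned a wide range of levels. Compared per length of exon, Lgals9 had the highest level at 7.74 ± 0.184 CPM per kb (SD, n = 3), followed by Lag3 at 2.09 ± 0.111. Cd274, at 1.73 ± 0.0695 CPM per kb, and Havcr2, at 1.39 ± 0.253, overlapped in range. Cd86 followed at 0.719 ± 0.0413, Cd80 at 0.203 ± 0.0102, and Pdcd1 at 0.125 ± 0.0419 overlapped with Pdcd1lg2 at 0.112 ± 0.0371. Ctla4 (0.0107 CPM per kb) and Tigit (0.00239) were lowest, and the annotated exons of Tigit sum to 24855 bases, which lowers its level per length.

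The comparison of Plekhg5+/+ SOD1-G93A with Plekhg5+/+ mice addressed the effect of the transgene where Plekhg5 was intact. Of the 10 members, 5 were higher and 0 lower (edgeR's quasi-likelihood test with Benjamini-Hochberg adjustment over all genes, adjusted p under 0.05), among 2.09% of all genes tested called higher and 2.47% called in either direction. The 5 were the receptors Pdcd1, Lag3 and Havcr2 and the ligands Lgals9 and Cd86. Pdcd1 was fitted as 13.1-fold higher, Lag3 as 3.75-fold, Cd86 as 2.45-fold, Havcr2 as 2.19-fold and Lgals9 as 1.76-fold. Each Plekhg5+/+ SOD1-G93A library lay above each Plekhg5+/+ library for 6 of the 10 members, against 11.6% of all genes tested. In bulk tissue a change in the number of cells of a type and a change in RNA per cell cannot be told apart.

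**Figure D1:**
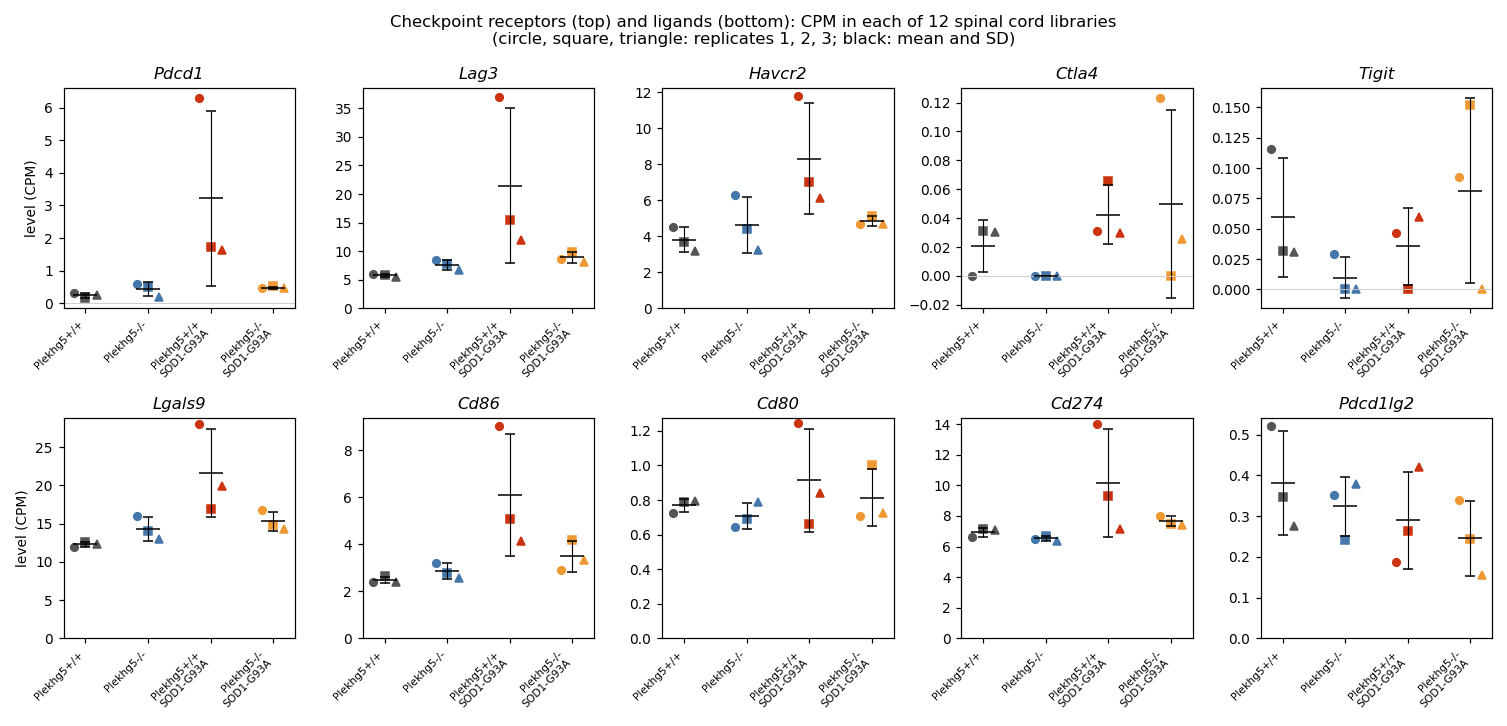
Level in CPM (linear axes from 0) of the 10 members in each library, by genotype, with symbols for replicates 1 to 3 and black bars for the mean and SD of 3 mice. Pdcd1 was at 1.62 to 6.31 CPM in Plekhg5+/+ SOD1-G93A mice and under 0.6 CPM in the other 9 libraries, and replicate 1 was the highest of its group for 7 members.

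Pdcd1 encodes PD-1, an inhibitory receptor of T cells. Its counts were 11, 5 and 8 in the Plekhg5+/+ libraries (0.319, 0.157 and 0.245 CPM) and 203, 52 and 54 in the Plekhg5+/+ SOD1-G93A libraries (6.31, 1.72 and 1.62 CPM). The groups did not overlap, and replicate 1 of the SOD1-G93A mice was over 3 times as high as the other two. The log2 fold change was 3.71 ± 0.585 (SE, edgeR adjusted p = 0.0125), the 15th largest increase among 20155 genes. With 24 counts in all in the Plekhg5+/+ libraries (exact 95% Poisson interval 15.4 to 35.7, counting error only), the fold is imprecise. Pdcd1 is one of the transcripts that the study selected from these same libraries for display, so its direction is not independent evidence.

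Lag3 encodes LAG-3, a receptor that binds MHC class II and is also expressed by microglia. It had 5.95, 5.85 and 5.38 CPM in Plekhg5+/+ mice and 37.1, 15.4 and 12.0 CPM in Plekhg5+/+ SOD1-G93A mice. Its lowest SOD1-G93A library was still more than 2 times as high as its highest Plekhg5+/+ library. The log2 fold change was 1.91 ± 0.341 (SE, edgeR adjusted p = 0.0198).

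Havcr2 encodes TIM-3, which occurs on exhausted T cells and on myeloid cells including microglia. Its levels were 4.52, 3.68 and 3.15 CPM in Plekhg5+/+ and 11.8, 7.00 and 6.12 CPM in Plekhg5+/+ SOD1-G93A mice, without overlap. The log2 fold change was 1.13 ± 0.263 (SE), with an edgeR adjusted p of 0.0447, close to the threshold. Its ligand gene Lgals9 had 12.0, 12.6 and 12.3 CPM in Plekhg5+/+ and 28.0, 16.9 and 19.9 CPM in Plekhg5+/+ SOD1-G93A mice. Lgals9 thus showed the smallest increase of the 5 with a log2 fold change of 0.81 ± 0.152 (SE, edgeR adjusted p = 0.0198), from the highest starting level of all members.

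The costimulatory ligands CD80 and CD86, which share their receptors, differed in their values. Cd86 had 2.41, 2.64 and 2.39 CPM in Plekhg5+/+ and 9.04, 5.08 and 4.14 CPM in Plekhg5+/+ SOD1-G93A mice, with a log2 fold change of 1.29 ± 0.250 (SE, edgeR adjusted p = 0.0206). Cd80 had 0.725, 0.787 and 0.796 CPM in Plekhg5+/+ and 1.24, 0.660 and 0.840 CPM in Plekhg5+/+ SOD1-G93A mice, and the groups overlapped. Its log2 fold change was 0.25 ± 0.246 (SE, edgeR adjusted p = 0.643, 95% interval -0.28 to 0.78). The ratio of Cd86 to Cd80 in CPM per kb of exon lay between 3.30 and 3.70 in Plekhg5+/+ libraries and between 5.42 and 8.47 in Plekhg5+/+ SOD1-G93A libraries.

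The PD-1 ligands did not pass the test. Cd274, the gene of PD-L1, had 6.61, 7.11 and 7.07 CPM in Plekhg5+/+ and 14.0, 9.31 and 7.14 CPM in Plekhg5+/+ SOD1-G93A mice, so that the lowest SOD1-G93A library lay just above the highest wild-type one. The log2 fold change was 0.55 ± 0.182 (SE, edgeR adjusted p = 0.130). Pdcd1lg2 was at 9 to 18 counts in Plekhg5+/+ and 6 to 14 counts in Plekhg5+/+ SOD1-G93A libraries, with a log2 fold change of -0.39 ± 0.388 (SE, edgeR adjusted p = 0.651). The ratio of Cd274 to Pdcd1 in CPM per kb of exon was 9.97 to 21.7 in Plekhg5+/+ and 1.07 to 2.61 in Plekhg5+/+ SOD1-G93A libraries.

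Ctla4 and Tigit were at the limit of detection in every genotype. Ctla4 had 0 to 4 counts per library: 2 counts in all in Plekhg5+/+ mice, 0 in Plekhg5-/- mice, 4 in Plekhg5+/+ SOD1-G93A mice and 5 in Plekhg5-/- SOD1-G93A mice. The count of 0 over the 3 Plekhg5-/- libraries allowed a level of up to 0.0303 CPM by the limit of 3 counts, which is one-sided; the upper end of the two-sided 95% Poisson interval, as given for Pdcd1, is 0.0372 CPM. Tigit had 0 to 5 counts per library and sums of 6, 1, 4 and 8 in the same order, after rounding. No difference of either receptor between genotypes was detectable at this depth, and these limits cover counting error only.

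The 5 calls depended on the libraries in the fit. Without replicate 1 of the Plekhg5+/+ mice 0 members were called, with edgeR adjusted p of 0.0680 to 0.0887, although the log2 fold changes were 3.97 for Pdcd1, 1.93 for Lag3, 1.27 for Cd86, 1.28 for Havcr2 and 0.79 for Lgals9. Without replicate 2 of the Plekhg5+/+ mice 0 were called as well (edgeR adjusted p 0.0948 to 0.169), with 3.49, 1.92, 1.34, 1.11 and 0.83 in the same order. With only the 2 genotypes in the fit 0 were called, whereas 4 of them were called without replicate 1 of the SOD1-G93A mice. The loss was not particular to the members. Over all genes the 498 calls became 4 and 2 without Plekhg5+/+ replicate 1 and 2, and 3 with only the 2 genotypes. They became 223 without replicate 1 of the SOD1-G93A mice. Without that SOD1-G93A library the log2 fold changes were 2.77 for Pdcd1, 1.26 for Lag3, 0.89 for Cd86, 0.79 for Havcr2 (edgeR adjusted p = 0.173, range over 20 alternatives 0.00125 to 0.173) and 0.58 for Lgals9.

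**Figure D2:**
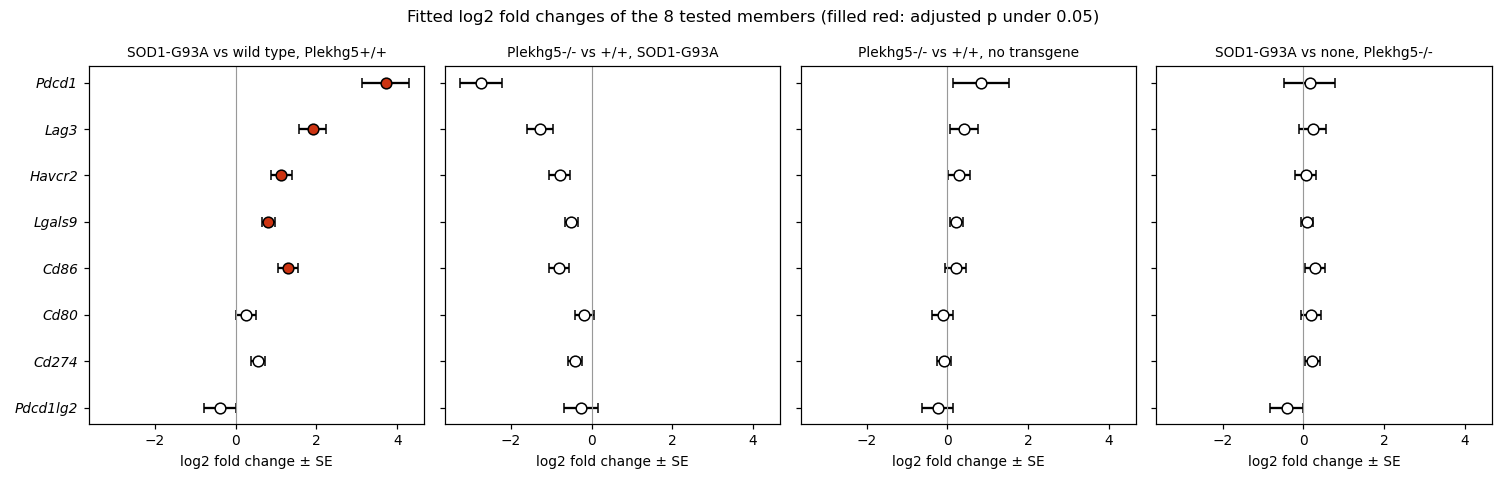
Log2 fold changes with SE from the edgeR fit for the 8 tested members in 4 comparisons of genotypes (n = 3 mice each); filled red points passed an adjusted p of 0.05. The 5 red points are all in the first panel, and in the second panel all 8 values are negative without passing the test.

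Plekhg5 loss in the presence of the transgene was examined by comparing Plekhg5-/- SOD1-G93A with Plekhg5+/+ SOD1-G93A mice. Of the 10 members, 0 passed the edgeR test, among 0.0347% of all genes tested (7 genes). The fitted values of the 8 tested members were all negative, from -2.73 for Pdcd1 to -0.18 for Cd80, with a median of -0.64 against -0.0097 over all genes tested, and 6 had an unadjusted p under 0.05, against 8.64% of all genes. Each Plekhg5-/- SOD1-G93A library lay below each Plekhg5+/+ SOD1-G93A library for 4 of the 10 members (Pdcd1, Lag3, Havcr2 and Lgals9), against 10% of all genes tested. This comparison and the previous one share the Plekhg5+/+ SOD1-G93A libraries, so a high value there enters both with opposite signs.

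Pdcd1 had 15, 17 and 18 counts in the Plekhg5-/- SOD1-G93A libraries (0.463, 0.516 and 0.466 CPM), against 52 to 203 counts in Plekhg5+/+ SOD1-G93A. Its level was thus even among the Plekhg5-/- SOD1-G93A mice and below that of every Plekhg5+/+ SOD1-G93A mouse. The log2 fold change was -2.73 ± 0.526 (SE), or 6.64-fold lower, with an unadjusted p of 0.000211 and an edgeR adjusted p of 0.262 in the fit across all genes. DESeq2 without a prior called Pdcd1 (adjusted p = 0.00141), and limma voom called 0 members. DESeq2 with the prior, the method that the study used, called Pdcd1 (adjusted p = 4.97e-07) and Lag3 (adjusted p = 0.0281). Over all 20 alternatives the adjusted p of Pdcd1 ranged from 4.97e-07 to 0.869.

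Lag3 had 8.68, 9.91 and 8.09 CPM in Plekhg5-/- SOD1-G93A mice, with a log2 fold change of -1.27 ± 0.329 (SE, edgeR adjusted p = 0.402). Havcr2 had 4.69, 5.13 and 4.66 CPM and a log2 fold change of -0.78 (edgeR adjusted p = 0.471). Lgals9 had 16.7, 14.8 and 14.3 CPM and a log2 fold change of -0.50 (edgeR adjusted p = 0.428). All 3 genes lay below every Plekhg5+/+ SOD1-G93A library, in Lgals9 by a margin of 16.7 against 16.9 CPM.

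Cd86 had 2.93, 4.19 and 3.34 CPM in Plekhg5-/- SOD1-G93A mice and overlapped with the lowest Plekhg5+/+ SOD1-G93A library. Its log2 fold change was -0.80 (edgeR adjusted p = 0.427). Cd274 had 8.02, 7.47 and 7.43 CPM and a log2 fold change of -0.41 (edgeR adjusted p = 0.559), and Cd80 and Pdcd1lg2 had values of -0.18 and -0.26. Without replicate 1 of the Plekhg5+/+ SOD1-G93A mice the log2 fold changes were -1.78 for Pdcd1, -0.62 for Lag3, -0.44 for Havcr2, -0.40 for Cd86, -0.26 for Lgals9 and -0.11 for Cd274, and that of Cd80 was 0.11.

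Without the transgene, Plekhg5 loss gave 0 calls among the 10 members, among 0.0298% of all genes tested. Of the 8 tested members, 0 had an unadjusted p under 0.05, and DESeq2 and limma voom also called 0. Pdcd1 had 20, 17 and 6 counts in Plekhg5-/- mice (0.585, 0.512 and 0.189 CPM), overlapping with wild-type, and a log2 fold change of 0.83 ± 0.699 (SE, edgeR adjusted p = 0.997, 95% interval -0.69 to 2.35). Lag3, at 8.40, 7.71 and 6.59 CPM, and Lgals9, at 15.9, 14.0 and 12.9 CPM, lay above every Plekhg5+/+ library, against 4.71% of all genes tested. Their log2 fold changes were 0.40 (edgeR adjusted p = 0.997) and 0.22 (edgeR adjusted p = 0.984), and the pan-microglial markers of the 3 Plekhg5-/- libraries lay 0.42, 0.28 and 0.022 above the wild-type mean on the log2 scale.

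The transgene in Plekhg5-/- mice also gave 0 calls among the 10 members, among 0.00496% of all genes tested. For the 8 tested members 0 had an unadjusted p under 0.05, DESeq2 and limma voom called 0, and the fitted values lay between -0.41 for Pdcd1lg2 and 0.28 for Cd86. Pdcd1 had a log2 fold change of 0.15 with a 95% interval of -1.20 to 1.51. Cd274 was the member whose Plekhg5-/- SOD1-G93A libraries (7.43 to 8.02 CPM) all lay above the Plekhg5-/- libraries (6.37 to 6.69 CPM), against 7.26% of all genes tested.

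Whether the effect of the transgene differed between Plekhg5 genotypes was tested with the interaction term. Of the 10 members, 0 passed the edgeR test, among 0% of all genes tested, where 1824 genes had an unadjusted p under 0.05. The term was negative for all 8 tested members and had an unadjusted p under 0.05 for 5. It was largest for Pdcd1, at -3.56 on the log2 scale (edgeR adjusted p = 0.338), followed by Lag3 at -1.68, Havcr2 at -1.07, Cd86 at -1.01 and Lgals9 at -0.72. Without replicate 1 of the Plekhg5+/+ SOD1-G93A mice these values were -2.61, -1.03, -0.73, -0.61 and -0.48, and that of Cd80 was positive (0.23). DESeq2 called Pdcd1 for this term with the prior (adjusted p = 0.00127) and without it (adjusted p = 0.0127), limma voom called 0 members, and the range over the 19 alternatives was 0.00127 to 0.800.

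Markers of microglia moved with the members. The 10 pan-microglial markers, among them Csf1r, Aif1 and Itgam, were all called higher in Plekhg5+/+ SOD1-G93A than in Plekhg5+/+ mice, with a median log2 fold change of 1.47, and of the 7 homeostatic microglial markers 5 were called higher, with a median of 0.54. Their part in the changes of the members was not tested. In Plekhg5-/- SOD1-G93A against Plekhg5+/+ SOD1-G93A mice 0 of the 10 pan-microglial markers were called, all 10 had an unadjusted p under 0.05, and the median log2 fold change was -0.94; DESeq2 called 1 without and 2 with the prior, and limma voom 0. The mean log2 level of the pan-microglial markers in the Plekhg5-/- SOD1-G93A libraries lay 0.764, 0.617 and 0.468 above the wild-type mean.

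The level of each member was therefore also expressed per microglial transcript, as its log2 CPM minus the mean log2 CPM of the 10 pan-microglial markers. These markers rose unevenly in Plekhg5+/+ SOD1-G93A against Plekhg5+/+ mice, with log2 fold changes from 0.89 for Csf1r to 2.36 for Cd68. The study stained the product of Cd68 to show microglial activation. The scale therefore does not stand for the number of microglia alone. On this scale Pdcd1 was at -6.15 ± 0.289 (SD, n = 3) in Plekhg5+/+ and -4.36 ± 0.516 in Plekhg5+/+ SOD1-G93A mice, a difference of 1.78 without overlap. Plekhg5-/- SOD1-G93A mice were at -5.88 ± 0.171, which is 1.52 below Plekhg5+/+ SOD1-G93A mice, again without overlap. The two-sided exact permutation test gave p = 0.1 for both, which is the smallest p that 3 against 3 mice allow. Pdcd1 kept these signs with homeostatic in place of pan-microglial markers, at 2.53 and -1.92.

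Of the other members only Lag3 was higher per pan-microglial transcript in Plekhg5+/+ SOD1-G93A than in Plekhg5+/+ mice, by 0.32, and the groups overlapped (exact permutation p = 0.3). Havcr2 and Cd86 were lower by 0.32 and 0.21 with overlapping groups, whereas with homeostatic markers they were higher by 0.42 and 0.54. Lgals9 was lower by 0.62 per pan-microglial transcript without overlap (exact permutation p = 0.1), whereas with homeostatic markers it was higher by 0.12. Cd274, Cd80 and Pdcd1lg2 were lower by 0.91, 1.21 and 1.75 without overlap (exact permutation p = 0.1 each), and lower by 0.17, 0.47 and 1.01 with homeostatic markers. The pan-microglial mean itself lay 1.02 to 2.07 above the wild-type mean in the Plekhg5+/+ SOD1-G93A libraries. A gene at an unchanged level in the tissue is therefore lower on this scale. The share of all genes tested that separate in this way was not counted.

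For Plekhg5 loss in the presence of the transgene Lag3 had the same sign as Pdcd1 on the pan-microglial scale and the other 6 tested members the opposite one. Cd274, Lgals9 and Cd80 were higher per pan-microglial transcript in the Plekhg5-/- SOD1-G93A mice, by 0.43, 0.32 and 0.65, without overlap (exact permutation p = 0.1 each), whereas with homeostatic markers Lgals9 was lower by 0.088. The pan-microglial mean was lower in every Plekhg5-/- SOD1-G93A library (0.468 to 0.764 above wild type) than in every Plekhg5+/+ SOD1-G93A library (1.02 to 2.07). A gene at an unchanged level in the tissue is therefore higher on this scale. The share of all genes tested that separate in this way was not counted. The groups overlapped for Lag3 (-0.31), Pdcd1lg2 (0.60), Havcr2 (0.068) and Cd86 (0.057), and with homeostatic markers Havcr2 and Cd86 were at -0.34 and -0.35.

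**Figure D3:**
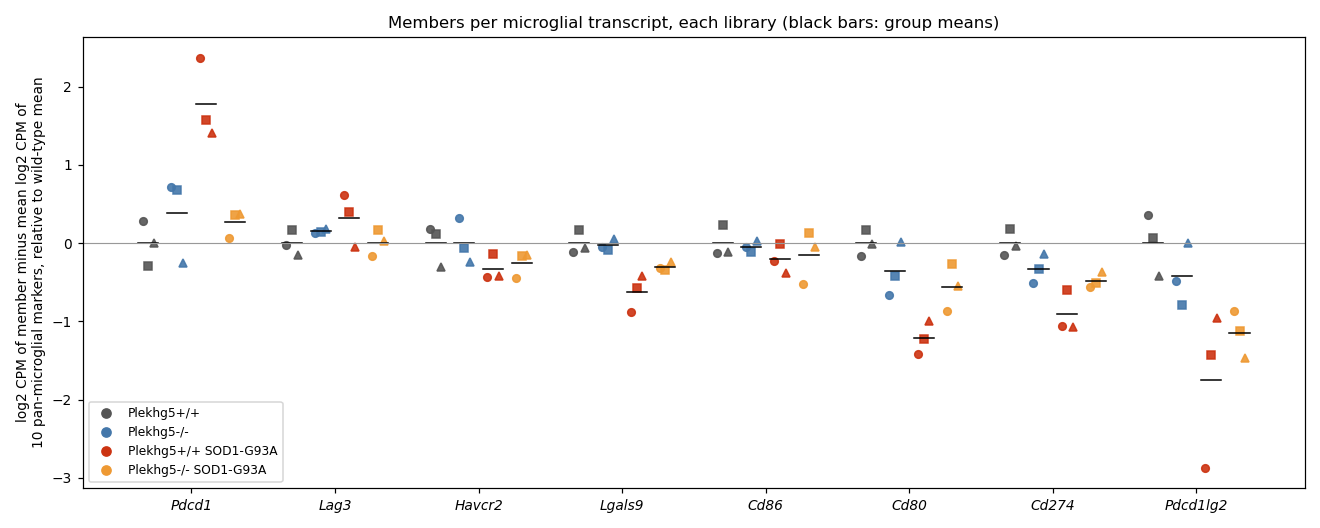
Log2 CPM of each tested member minus the mean log2 CPM of 10 pan-microglial markers, relative to the wild-type mean, in each library (symbols for replicates 1 to 3) with black bars for group means. Pdcd1 is the member whose 3 Plekhg5+/+ SOD1-G93A libraries lie above all other libraries, while for Cd80, Cd274, Lgals9 and Pdcd1lg2 the Plekhg5+/+ SOD1-G93A libraries lie below the wild-type ones. A gene at an unchanged level in the tissue would also lie lower in those libraries.

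T and NK cells are the other usual source of the receptors. Of 15 markers of these cells, 7 passed the filter, 0 were at 0 in every library, and 0 were called in Plekhg5+/+ SOD1-G93A against Plekhg5+/+ mice. There, 3 of the 7 had an unadjusted p under 0.05, against 18.2% of all genes tested. The 7 had a median fold change of 1.03 on the log2 scale. DESeq2 called 1 of these markers, Lck, and limma voom 0. Their summed level was 2.53 to 3.41 CPM in Plekhg5+/+, 3.29 to 3.75 CPM in Plekhg5-/-, 5.30 to 5.81 CPM in Plekhg5+/+ SOD1-G93A and 4.11 to 10.2 CPM in Plekhg5-/- SOD1-G93A libraries, so it was higher in all SOD1-G93A libraries than in those without the transgene. The highest sum was in replicate 2 of the Plekhg5-/- SOD1-G93A mice, which had 16 counts of Cd3g, 42 of Cd4 and 39.5 of Cd8a, but 17 counts of Pdcd1, within 2 counts of the others of its group. Replicate 1 of the Plekhg5+/+ SOD1-G93A mice, with 203 counts of Pdcd1, had 3 counts each of Cd3d and Cd3e and 6 of Cd3g, none of them the highest of the 12 libraries, but also 16 of Cd5, the highest, 18 of Nkg7, the joint highest, and 11 of Cd247, the second highest. The part of T and NK cells in the level of the members was not tested beyond these values.

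**Figure D4:**
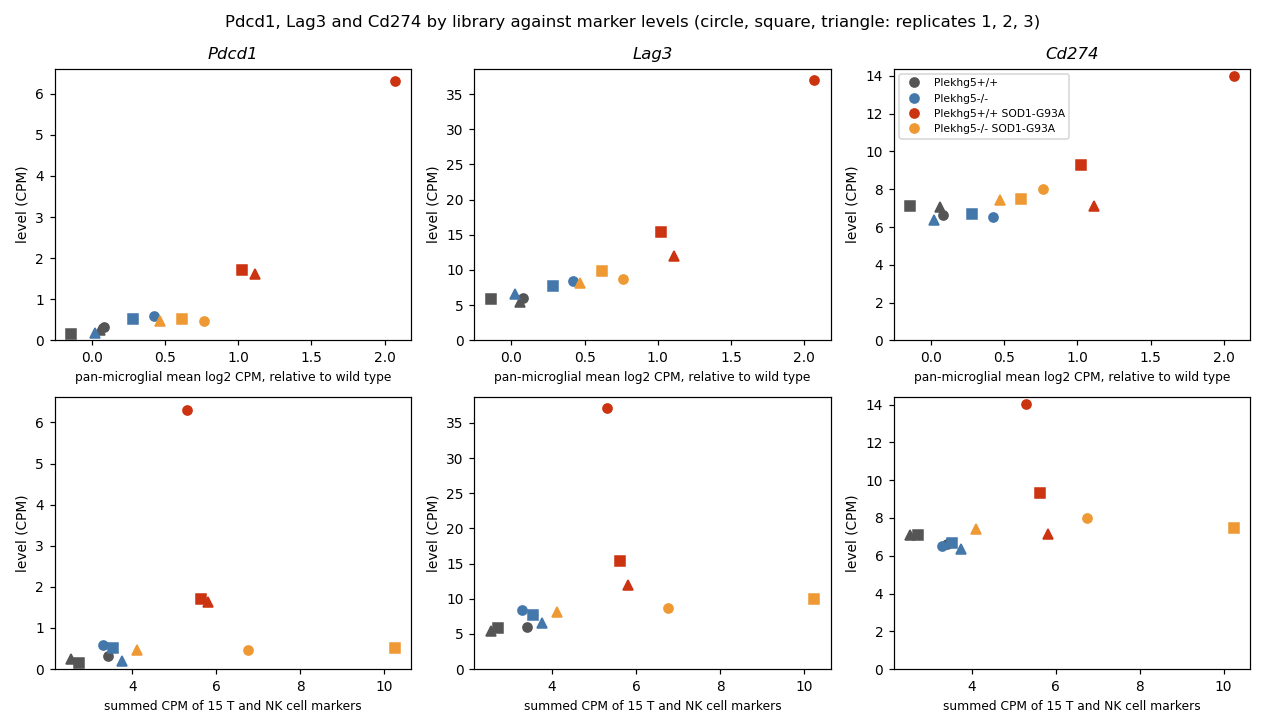
Level of Pdcd1, Lag3 and Cd274 in CPM (linear axes from 0) against the mean log2 level of pan-microglial markers relative to wild-type (top) and against the summed CPM of 15 T and NK cell markers (bottom), 1 point per library. The library with the highest T and NK cell sum, 10.2 CPM, had 0.516 CPM of Pdcd1, and the library with the highest Pdcd1, 6.31 CPM, had the highest pan-microglial level.

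Other leukocyte markers were also counted. All 4 B cell markers passed the filter and Cd79b was called higher, by edgeR and DESeq2 but not by limma voom or without replicate 1 of the SOD1-G93A mice, in Plekhg5+/+ SOD1-G93A against Plekhg5+/+ mice, with summed levels of 0.609 to 1.54 CPM in Plekhg5+/+ and 1.50 to 4.26 CPM in Plekhg5+/+ SOD1-G93A libraries. Of 6 dendritic cell markers 2 passed the filter, Flt3 and Zbtb46 (sums of 36.2 to 47.0 and 29.3 to 37.3 CPM). Of these, 0 were called by edgeR or limma voom and 1 (Flt3, lower) by DESeq2. An unadjusted p under 0.05 was found for 1, against 18.2% of all genes tested. All 5 monocyte and neutrophil markers passed, 0 were called by edgeR, DESeq2 or limma voom, and 0 had an unadjusted p under 0.05 (15.2 to 49.5 and 30.9 to 89.3 CPM). Of the 8 spinal cord markers only the astrocyte gene Gfap was called, with a log2 fold change of 1.23.

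The members were set beside 46 other checkpoint genes in 6 lists. Of these, 31 passed the filter, 6 were called higher and 0 lower in Plekhg5+/+ SOD1-G93A against Plekhg5+/+ mice, and the median log2 fold change was 0.53 against -0.00099 over all genes tested. In Plekhg5-/- SOD1-G93A against Plekhg5+/+ SOD1-G93A mice 0 were called, 10 of the 31 had an unadjusted p under 0.05, against 8.64% of all genes tested, and the median was -0.25. DESeq2 with the prior called 10 and 3 of these genes in the same comparisons, DESeq2 without it 8 and 0, limma voom 3 and 0, and edgeR without replicate 1 of the Plekhg5+/+ SOD1-G93A mice 2 (Lgals3 and Ptpn6) and 0. Without the transgene 0 were called for Plekhg5 loss, 0 for the transgene in Plekhg5-/- mice and 0 for the interaction, with 2, 5 and 5 of the 31 at an unadjusted p under 0.05, against 5.32%, 5.38% and 9.05% of all genes tested; of the other tools, DESeq2 called Lgals3 for the interaction.

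In the B7 and CD28 family Vsir, which encodes the inhibitory receptor VISTA, was called among 6 tested genes, at 36.9 ± 0.540 CPM (SD, n = 3) in Plekhg5+/+ and 55.0 ± 10.6 CPM in Plekhg5+/+ SOD1-G93A mice (log2 fold change 0.58 ± 0.118, SE, edgeR adjusted p = 0.0266). Vsir and Icosl, the ligand gene of ICOS, were the most abundant of this family per length, at 5.82 and 3.84 CPM per kb over the 12 libraries. Of 5 tested genes of the TIGIT and nectin axis 0 were called and 2 had an unadjusted p under 0.05, against 18.2% of all genes tested. Among the other tools DESeq2 with the prior called Nectin2. The most abundant were the TIGIT ligand genes Pvr and Nectin2, at 2.63 and 1.91 CPM per kb, with log2 fold changes of 0.16 and 0.44. Both ligand genes were thus present in a tissue in which Tigit itself had at most 5 counts.

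Among the other TIM family genes and ligands of TIM-3 or LAG-3, Lgals3, the gene of galectin-3, was called, at 5.16 ± 1.23 CPM in Plekhg5+/+, 31.2 ± 15.7 CPM in Plekhg5+/+ SOD1-G93A and 14.5 ± 1.81 CPM in Plekhg5-/- SOD1-G93A mice (log2 fold change 2.59 ± 0.332, SE, edgeR adjusted p = 0.0125). Hmgb1, a nuclear protein gene whose product binds TIM-3, was the most abundant at 23.4 CPM per kb, with a log2 fold change of 0.15. Galectin-3 was thus the galectin gene with the larger fitted increase, and Lgals9 that with the smaller one, with no test between them. Of 10 genes of TNF superfamily costimulation 3 were tested, 0 were called by edgeR, DESeq2 or limma voom and 0 had an unadjusted p under 0.05, and the most abundant, Tnfsf9 and Tnfrsf4, were at 0.554 and 0.369 CPM per kb.

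Of 10 tested myeloid inhibitory checkpoint genes 3 were called, Lilrb4a (5.28-fold higher), Cd48 (3.21-fold) and the collagen receptor gene Lair1 (1.85-fold). The most abundant of this list were Cd200, a ligand made by neurons, at 36.7 CPM per kb and a log2 fold change of -0.04, and Sirpa, the receptor of CD47, at 30.1 CPM per kb and 0.35. Of the 3 phosphatases that carry inhibitory signals, Ptpn6, the gene of SHP-1, was called (1.29 ± 0.241, SE, edgeR adjusted p = 0.0198), and the most abundant, Ptpn11, the gene of SHP-2 that acts downstream of PD-1, had a value of -0.10.

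**Figure D5:**
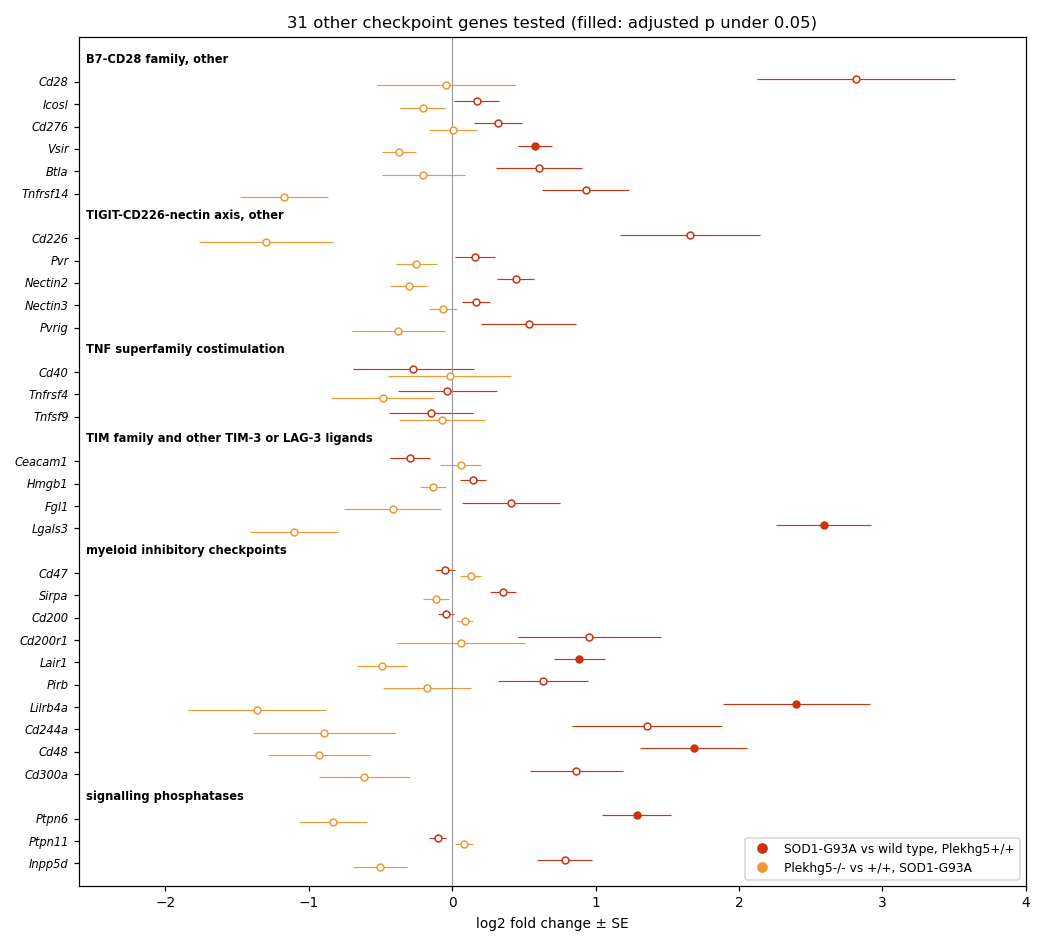
Log2 fold changes with SE (edgeR) of the 31 tested checkpoint genes that are not members, by list, for SOD1-G93A against wild-type in Plekhg5+/+ mice (red) and for Plekhg5-/- against Plekhg5+/+ in SOD1-G93A mice (orange), n = 3 mice each; filled points passed an adjusted p of 0.05. The 6 filled points are red and lie between 0.58 and 2.59.

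The genes whose centred log2 CPM profiles over the 12 libraries were most like those of the members were found by the smallest root mean square difference, as a description over libraries that share genotypes. For Pdcd1 they were Hcar2 (difference 0.439), Ccl4 (0.537) and Clec7a (0.543), against an SD of Pdcd1 itself of 1.39. For Lag3 they were Trem2 (0.147), Hvcn1 (0.148) and Slc11a1 (0.157), with an SD of Lag3 of 0.766. The profile of Cd86 was closest to Grn, Cd109 and Nckap1l (0.147 to 0.152), and that of Havcr2 to Fcgr3, Gfap and Blnk (0.135 to 0.148). Clec7a, Trem2 and Fcgr3 encode myeloid receptors, Ccl4 a chemokine, Grn progranulin and Gfap an astrocyte filament.

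The profile of Lgals9 was closest to Csf1r, the receptor of a microglial growth factor, with a difference of 0.0655, and to Plcg2 and Golm1. For Cd274 the closest were Spp1 (0.0702), Pbxip1 and Sbno2. Cd80 and Pdcd1lg2, which had few counts, were closest to Zfp217, Ripk1 and Gm21370 (0.112 to 0.126) and to 6430628N08Rik, Gm13588 and Gm4995 (0.208 to 0.229). For Pdcd1lg2 the SD over libraries was 0.408.

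By mean level per length, Pdcd1 was at the seventh place among the members in Plekhg5+/+ mice and at the sixth in the other genotypes, and Cd274 and Havcr2, whose ranges overlapped in all 4 genotypes, exchanged the third and the fourth place between genotypes. In Plekhg5+/+ SOD1-G93A mice Pdcd1 was at 1.67 ± 1.39 CPM per kb (SD, n = 3) and overlapped in range with Cd86 at 1.76 ± 0.754, whereas in Plekhg5-/- SOD1-G93A mice it was at 0.250 ± 0.0155 and overlapped with Cd80 at 0.214 ± 0.0433. Lgals9 and Lag3 held the 2 highest levels in all 4 genotypes, at 13.6 and 7.83 CPM per kb in Plekhg5+/+ SOD1-G93A mice with overlapping ranges and at 9.65 and 3.24 CPM per kb in Plekhg5-/- SOD1-G93A mice without overlap.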

How the data were processed

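RNA of 12 spinal cords was sequenced by the authors, 3 per genotype. The authors trimmed reads with Cutadapt 2.4, mapped them with STAR 2.7.2b to GRCm38.p6 plus the human SOD1 cDNA, and counted them by strand on RefSeq exons with featureCounts 1.6.4. Reads with several matches were split, so the deposited values are expected counts, not normalized; they were rounded for tests. Each column was matched to its mouse by the label.

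Genes were filtered with filterByExpr (minimum count 10), normalized with TMM, and fitted for all 4 genotypes together with robust edgeR 4.0.16 quasi-likelihood models in R 4.3.3, which were tested on simulated data. P-values were adjusted with Benjamini-Hochberg over 20155 genes, with a threshold of 0.05. CPM values used the same normalization, and log2 CPM a prior count of 2. Exact permutation tests were two-sided (SciPy 1.17.1). The members and lists were chosen with earlier results of these data known. Besides the members, the called and the 2 most abundant genes of each list and the 3 nearest profiles are named; Cd3d, Cd3e, Cd3g, Cd4, Cd5, Cd8a, Cd247 and Nkg7 were singled out after their values were seen. Alternatives used DESeq2 1.42.0, limma 3.58.1 voom, other normalization, filters, covariates and libraries. The authors themselves tested genes with DESeq2 with the prior, at an adjusted p under 0.05, so their method is among the alternatives here.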

Additional observations from a re-analysis of the deposited data

How the results depend on the processing

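The count of members called in Plekhg5+/+ SOD1-G93A against Plekhg5+/+ mice, 5, was 3 with no filter on low counts (Pdcd1, Lgals9 and Cd86) and 0 with only the 2 genotypes in the fit, and it ranged from 0 (without Plekhg5+/+ replicate 1 or 2) to 6 (without replicate 3 of the SOD1-G93A mice) with each of 12 libraries left out. The fold changes behind the lost calls were close to those reported, for Lag3 1.93 and 1.92 against 1.91 and for Cd86 1.27 and 1.34 against 1.29 on the log2 scale without Plekhg5+/+ replicate 1 and 2. It was 5 with each DESeq2 fit and 4 with voom. Over all genes the same comparison gave 498 calls, but 1162 and 1199 with DESeq2 without and with a prior, 282 with voom, 3 with only the 2 genotypes, and 2 to 771 with a library left out. For Plekhg5 loss in SOD1-G93A mice the member count, 0, was 1 and 2 with DESeq2 without and with the prior, and over all genes 7 became 72 and 112. For the interaction it was 1 with each DESeq2 fit, and 0 genes in all became 95 and 114. The causes were not tested. The prior shrinks log2 fold changes. That of Pdcd1 became 0.64 for SOD1-G93A against wild type, -0.57 for Plekhg5 loss in SOD1-G93A mice and -0.62 for the interaction. Whether replicate numbers stand for paired mice could not be decided. Of the same-numbered pairs 5 of 18 correlated over 0.1, and of the other-numbered pairs 9 of 36, with medians of 0.0055 and -0.034. The highest values were 0.318, for replicate 1 of Plekhg5+/+ and Plekhg5-/- mice, and 0.283 among other-numbered pairs. With the replicate block the 5 calls were 5, and the other member counts 0, while the 498 calls over all genes became 631.

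With a library left out, fitted log2 values changed sign for Cd80 (-0.032 to 0.41 for SOD1-G93A, -0.35 to 0.11 for Plekhg5 loss in SOD1-G93A mice, -0.23 to 0.23 for the interaction), for Pdcd1lg2 (-0.55 to 0.11 for Plekhg5 loss in SOD1-G93A mice, -0.43 to 0.057 without the transgene, -0.32 to 0.35 for the interaction), and, for the transgene in Plekhg5-/- mice, for Pdcd1 (-0.19 to 0.44) and Havcr2 (-0.14 to 0.34). Voom gave 0.013 and 0.015 for the interaction of Pdcd1lg2 and Cd80, and DESeq2 with the prior 0.0068 for Pdcd1lg2. None of these had passed the test. Relative to homeostatic markers the differences of Havcr2, Lgals9 and Cd86 were 0.42, 0.12 and 0.54 for SOD1-G93A and -0.34, -0.088 and -0.35 for Plekhg5 loss in SOD1-G93A mice, opposite to the pan-microglial ones; that of Cd86 for Plekhg5 loss ranged from -0.081 to 0.25 with a library left out. Of 791 refitted fold changes of members, 742 kept direction and side of the threshold, which includes the comparisons without any call. The calls for SOD1-G93A against wild type were kept less often. Over 20 alternatives they held in 17 each for Pdcd1, Lgals9 and Cd86, in 15 for Lag3 and in 10 for Havcr2.

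With 3 mice per group, exact tests cannot go below 0.1. Pdcd1lg2, Ctla4 and Tigit had at most 18 counts in a library, and the depth does not resolve their differences. The edgeR p-values test a difference against the spread between mice of the same genotype. That spread was estimated jointly over all genotypes in the fit, with 3 mice of each.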
